A study of Mus musculus with 4 samples.

Results

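Igf1, the gene of insulin-like growth factor 1, was 1 of the 15690 genes with a row in any of the 4 count tables of the series. It was chosen by its pooled level, which differed between the plates of irradiated and unirradiated mice, so the levels below are descriptions and no test is attached to them. The study sorted single myeloid cells from the brains of mice bearing lung cancer brain metastases, 1 cell per well, into 384-well plates. All 4 plates came from Balb/C athymic nude mice of strain CAnN.Cg-Foxn1nu/Crl, which lack a normal thymus and therefore most T cells. The cells carried the label BMDM, the field's abbreviation for bone marrow-derived macrophages that enter from the blood, or the label microglia, the resident macrophages of brain tissue.

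The BMDM plate and the microglia plate without whole brain radiation therapy (WBRT) were labelled tumor stage small. The BMDM plate and the microglia plate with WBRT were labelled tumor stage not stratified, with radiation given as 5 fractions of 2 Gy; the label's term d3 has no stated starting point. Treatment, tumor stage and plate therefore cannot be told apart. Each group was 1 plate, and animals and their ages are not named, so wells were not treated as replicates and every difference is a difference between libraries or between wells of 1 library.

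IGF1 is a secreted peptide that signals through the IGF1 receptor, a tyrosine kinase, to the insulin receptor substrates, PI3 kinase and AKT, which holds FOXO transcription factors out of the nucleus and activates mTOR. Binding proteins carry and sequester the peptide, and in liver its transcription is driven by growth hormone through JAK2 and STAT5. In brain it supports growth and survival of neurons and oligodendrocytes, and macrophages and activated microglia are known local sources of it.

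Igf1 lies on chromosome 10 of the mouse GRCm38 assembly, on the plus strand, from 87858265 to 87937042 in GENCODE release M21. Its 7 coding transcripts in the basic set have 4 to 5 exons and 7 different 3′ ends, and the deposited gene-level counts do not separate them. The antisense gene Igf1os, annotated on the minus strand from 87826377 to 87863381, overlaps the first part of the locus. Whether counting used strand is not given in the sources used here, and Igf1os was not analysed here. The bases just upstream of the start site at 87861111 in the RefSeq promoter table (build GRCm38.p6) are shown to place the gene whose RNA is counted below. They lie inside the annotated locus, whose first start is at 87858265, and so stand before an internal start and not before the first one:
Igf1, before the internal start, chr10:87860861-87861110, plus strand: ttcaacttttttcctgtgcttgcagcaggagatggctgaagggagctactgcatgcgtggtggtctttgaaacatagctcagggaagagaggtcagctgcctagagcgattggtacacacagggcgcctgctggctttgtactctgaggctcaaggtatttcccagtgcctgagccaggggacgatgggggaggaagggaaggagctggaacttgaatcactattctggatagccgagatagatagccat
These 250 bases were searched on both strands for 4 motifs, STAT5 (TTCNNNGAA), FOXO (TGTTTAC), the antioxidant response element (TGACNNNGC) and C/EBP (TTGCNNAA), and matches would have been printed in capitals. None was present, and in 32817 mouse promoter windows of the same length the motifs occurred in 7.01%, 3.16%, 10.2% and 9.57%.

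The analysis used wells with 1000 or more transcripts outside spike-in and mitochondrial rows and an ERCC spike-in share under 50%. This left 234 and 262 BMDM wells, without and with WBRT, and 157 and 151 microglia wells. Median depth was 4388, 8894, 4789 and 2546 transcripts per well in that order, and the median ERCC share was 30.6% in microglia with WBRT against 6.92% to 7.86% on the other plates. Pooled levels of the markers followed the cell labels: Tmem119 stood at 514 and 583 CPM (counts scaled to a library total of 1000000) and P2ry12 at 336 and 466 CPM on the microglia plates, against 115 to 177 CPM and 75.2 to 90.1 CPM on the BMDM plates. Ccr2, the receptor that brings monocytes out of bone marrow, stood at 389 and 969 CPM on the BMDM plates and at 0 and 6.16 CPM on the microglia plates. Single wells were less distinct, since Tmem119 was counted in 118 of 262 BMDM wells and 75 of 151 microglia wells with WBRT, and the BMDM wells were deeper. Malat1, a nuclear RNA, reached at least 1000 CPM in 215, 203, 87 and 45 of the kept wells, so microglia with WBRT also had the fewest wells rich in it. Well numbers are reused on every plate. Of the 115 numbers kept on both WBRT plates, 12 held Igf1 on both.

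Igf1 was near its detection limit in microglia without WBRT and was readily counted after WBRT. The summed count was 2 in microglia without WBRT, 22 in BMDM without WBRT, 299.2 in BMDM with WBRT and 185.1 in microglia with WBRT. Divided by all endogenous transcripts of the kept wells, this gave 2.29 CPM (95% exact Poisson interval 0.277 to 8.26), 17.4 CPM (10.9 to 26.3), 119 CPM (106 to 133) and 285 CPM (245 to 329). The 4 levels thus ran from microglia without WBRT up to microglia with WBRT, and no neighbouring intervals overlapped. These intervals cover counting error only, and the spread between animals or plates is not known.

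**Figure D1:**
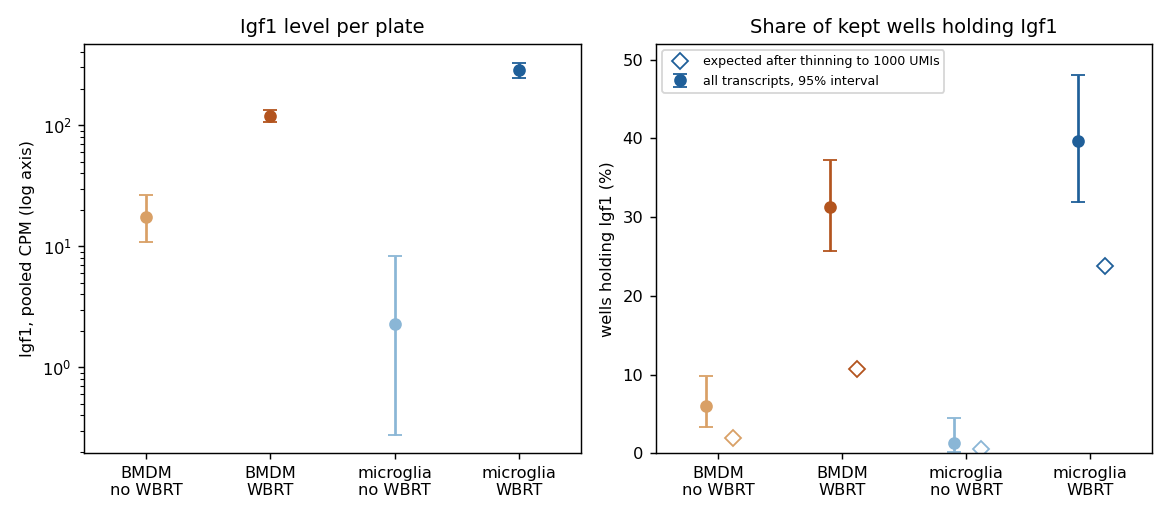
Igf1 per plate. Left, pooled CPM on a log axis with 95% exact Poisson intervals, from 2.29 CPM in microglia without WBRT to 285 CPM in microglia with WBRT. Right, percent of kept wells with an Igf1 transcript with 95% exact binomial intervals (filled circles), and the share expected after thinning every well to 1000 UMIs (open diamonds), which also is highest, 23.8%, in microglia with WBRT.

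The level with WBRT over that without was 125-fold in microglia (interval 34.0 to 1037, resting on 2 counts in the lower library) and 6.85-fold in BMDM (4.44 to 11.1). On the scale of log2 of CPM + 5, used here for all comparisons over many genes, the differences were 5.32 and 2.47. Among genes of at least 100 CPM in 1 of the 2 plates, Igf1 ranked 2 of 1671 in microglia and 14 of 1705 in BMDM. The gene ahead of it in microglia was Gpr37l1, a gene of astrocytes, and 88.2% of the counts of 6 astrocyte genes on that plate came from 1 well, which held no Igf1. The rule that chose Igf1 used these contrasts, in which 9.36% of 6723 genes lay at least a doubling higher with WBRT in microglia and 5.16% of 6551 in BMDM.

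The order of the sorts differed between treatments. Without WBRT the BMDM plate stood 7.60-fold above the microglia plate (interval 1.87 to 66.7), where 10.3% of 6591 genes were at least a doubling higher in BMDM. With WBRT the microglia plate stood 2.40-fold above the BMDM plate (1.98 to 2.89), where 7.45% of 6774 genes were at least a doubling lower in BMDM. In wells of at least 3000 transcripts the difference between the WBRT plates shrank to -0.35 on the log2 scale, against -1.23 in all kept wells. Per 1000 ERCC counts, Igf1 was at 1.39 in BMDM with WBRT and 1.13 in microglia with WBRT, so the sign of that difference depended on the denominator. Both WBRT plates stayed above their counterparts on the ERCC scale, at which the plates without WBRT had 0.241 (BMDM) and 0.0290 (microglia).

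Igf1 was found in a minority of cells on every plate. Of the kept wells, 14 (5.98%, exact binomial interval 3.31% to 9.83%) held it in BMDM without WBRT, 82 (31.3%, 25.7% to 37.3%) in BMDM with WBRT, 2 (1.27%, 0.155% to 4.53%) in microglia without WBRT and 60 (39.7%, 31.9% to 48.0%) in microglia with WBRT. Depth did not favour the last plate, whose median was the lowest, and after thinning every well to 1000 UMIs the expected shares were 1.92%, 10.8%, 0.539% and 23.8%. The share that free RNA alone would give was not measured. The 1.27% of microglia without WBRT was the lowest share on any plate, and it sets no limit for free RNA on another plate.

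In some wells of the irradiated plates many Igf1 transcripts were counted and in most none, where a count of 0 at this depth does not show that the cell lacked Igf1. In microglia with WBRT, 26 wells had 1 UMI, 10 had 2, 8 had 3 or 4 and 16 had at least 5, up to 10.01 transcripts in a well. In BMDM with WBRT, 33 had 1, 11 had 2, 14 had 3 or 4 and 24 had at least 5, up to 19.04. Without WBRT no well reached 5: the highest BMDM well had 4 and both microglia wells had 1. The signal was spread over wells after WBRT, since the 5 wells richest in Igf1 held 25.4% of its counts in microglia and 24.1% in BMDM.

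Within Igf1-holding wells, the level in microglia with WBRT ran from 47.0 CPM over a median of 734 CPM to 4546 CPM. In BMDM with WBRT it ran from 59.5 over 244.7 to 2642 CPM, and in BMDM without WBRT from 48.6 over 261 to 1486 CPM. A single transcript is worth more CPM in a shallow well, so these ranges partly follow depth: median depth of holding wells was 2626, 9021 and 5649 transcripts. Holding and other wells of the same plate were of like depth in microglia with WBRT (2626 and 2515) and in BMDM with WBRT (9021 and 8819).

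**Figure D2:**
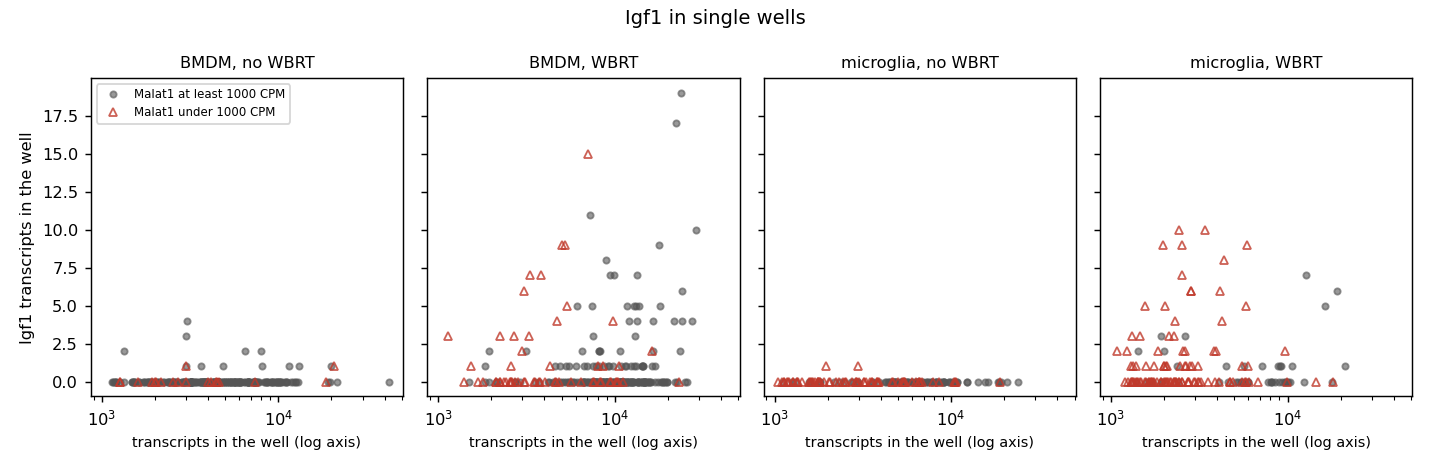
Igf1 transcripts per well against the transcripts of the well (log axis) in the 4 plates, with wells of at least 1000 CPM of Malat1 as grey circles and wells below it as red triangles. Without WBRT no well exceeds 4 Igf1 transcripts, and in microglia with WBRT the wells richest in Igf1 are mostly shallow wells with little Malat1.

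The Igf1 level moved with Malat1 content and depth inside the irradiated plates. In microglia with WBRT it was 113 CPM (79.5 to 156) in the 45 wells rich in Malat1 and 461 CPM (389 to 541) in the 106 others. In BMDM with WBRT it was 96.0 CPM in 203 Malat1-rich wells and 281 CPM in the 59 others. With the wells of a plate ordered by depth and cut into 3 equal sets, the microglia values were 561, 576 and 143 CPM from shallow to deep, and the BMDM values 236, 101 and 99.3 CPM.

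The difference between treatments was present in both classes of wells. Among Malat1-rich microglia, 16 of 45 wells held Igf1 with WBRT and 0 of 87 without. With that 0 set to 3 counts for those wells together, the irradiated wells stood 23.3-fold higher. The lower exact limit of the ratio at the observed 0 was 17.99-fold. Among the other microglia wells the ratio was 59.1-fold (interval 16.1 to 493). In BMDM it was 5.63-fold (3.55 to 9.40) in Malat1-rich wells and 12.9-fold (3.47 to 108) in the others. The part of cell integrity or RNA quality in the levels was not tested.

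The cells holding Igf1 in irradiated microglia differed from their plate mates in genes of iron and heme handling, among others. Slc40a1 encodes ferroportin, the exporter of iron from cells. Among the ranked genes of at least 100 CPM it had the highest log2 ratio of CPM + 5. It was at 660 CPM in the 60 holding wells and 116 CPM in the 91 others, 5.69-fold higher (4.08 to 8.09). It was found in 65.0% and 27.5% of these wells, or 44.9% and 11.96% after thinning. Hmox1, the heme oxygenase that releases iron from heme, was at 4976 and 1219 CPM, 4.09-fold higher (3.67 to 4.55), and was found in 96.7% and 73.6% of wells. Ccl8, a chemokine for monocytes and other leukocytes, was at 184 and 49.0 CPM. Across this plate 11.1% of 6789 genes were at least a doubling higher in holding wells and 11.3% at least a doubling lower, which is the background for every count of genes below.

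The other genes most like Igf1 on that plate, ranked by the log2 ratio between holding and other wells, included 2 lectin receptors of innate immunity. Clec4n, which encodes Dectin-2, was at 130 and 20.6 CPM, and Clec4d, another C-type lectin receptor gene, at 146 and 25.8 CPM. The remaining 5 were Tmem8 (207 and 36.1 CPM), the protease inhibitor gene Serpinb6a (153 and 28.3 CPM), the annexin gene Anxa4 (157 and 30.9 CPM), the ETS-family repressor gene Etv6 (134 and 30.9 CPM) and Casp4, an inflammatory caspase gene (226 and 59.2 CPM). All 10 genes were detected in a larger share of holding wells than of other wells, before and after thinning.

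Genes of antigen presentation and matrix were among the 10 lowest. Cd74, the invariant chain of MHC class II, was at 30.7 CPM in holding wells and 264 CPM in others, 8.56-fold lower (4.19 to 20.4), although 1 well gave 54.1% of the counts in the others. H2-DMa, which loads peptide onto class II, was at 61.3 and 206 CPM, and H2-Aa at 72.8 and 238 CPM with 66.5% of the latter from 1 well. Fn1, which encodes fibronectin, was at 72.8 and 419 CPM, 5.76-fold lower (3.57 to 9.82), with 37.8% of the counts in the others from 1 well. The other 6 of the 10 lowest were Fis1, Slamf9, Tuba1a, Tspan7, Dennd4a and Ccnd2, at 26.8 to 65.2 CPM in holding wells and 111 to 248 CPM in others, and 55.4% of the Tuba1a counts in the other wells came from 1 well. Of the other cell types' lists, all 6 astrocyte genes were at least a doubling lower in holding wells (summed level 104 and 1452 CPM, median -3.67), and the single well of 17891 transcripts that gave 88.2% of these counts belonged to the other wells. Without that astrocyte-rich well Cd74 was at -2.97 and Fn1 at -2.51 on the log2 scale, against -2.91 and -2.45 with it. The other wells richest in Cd74 or Fn1 were not left out on their own, so their part in these ratios was not tested.

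The contrast was weaker in Malat1-rich microglia wells, of which 16 held Igf1 and 29 did not. There the log2 ratio was 1.02 for Slc40a1 against 2.46 in all kept wells, 0.87 for Hmox1 against 2.03, and -0.78 for Cd74 against -2.91, so Hmox1 and Cd74 were then within a doubling. Fn1 was the exception among these genes, at -3.19 against -2.45. In every setting run, the log2 ratio stayed above 0 for Slc40a1, Hmox1 and Ccl8 and below 0 for Cd74 and Fn1.

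**Figure D3:**
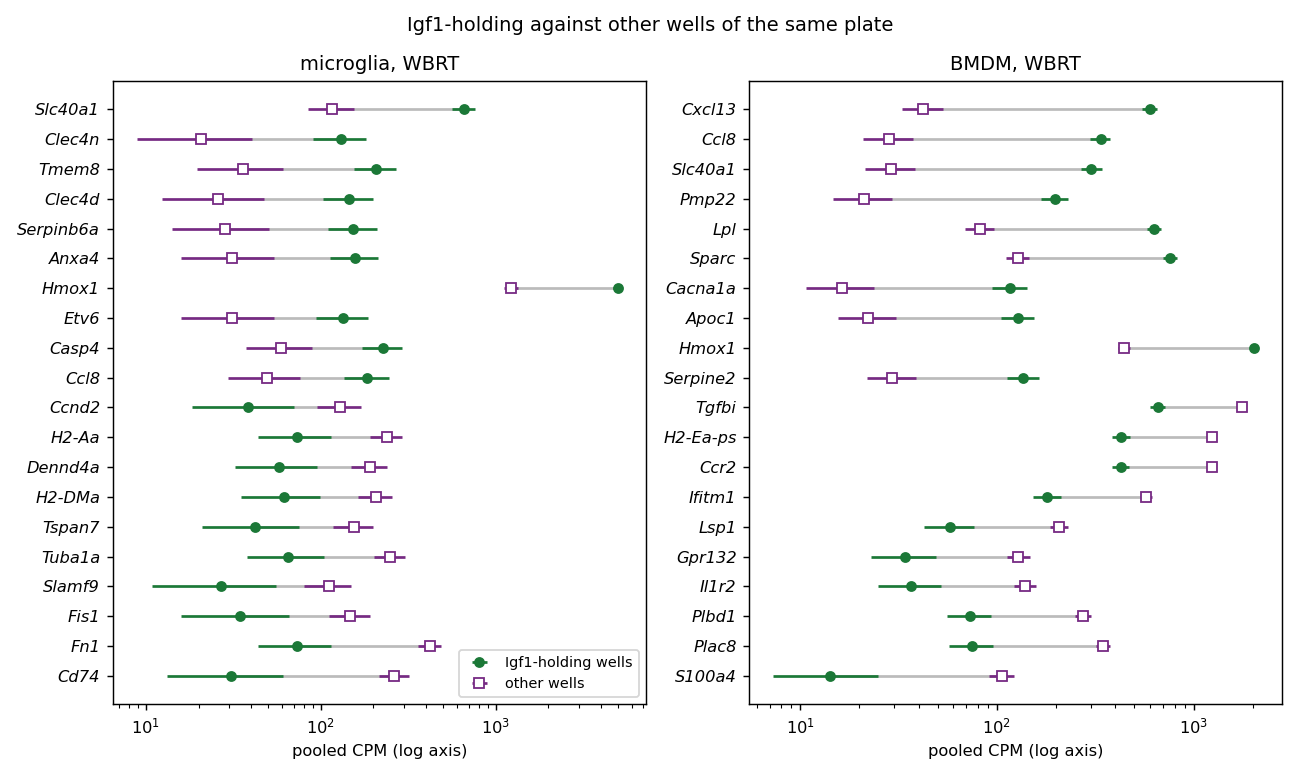
Pooled CPM (log axis) in Igf1-holding wells (filled circles) and other wells (open squares) of the same plate for the 10 highest and 10 lowest genes by log2 ratio of CPM + 5, with 95% exact Poisson intervals. Slc40a1, Hmox1 and Ccl8 are in the upper 10 of both panels, and Cd74 and Fn1 lie at the bottom in microglia while S100a4 and Plac8 lie at the bottom in BMDM.

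Irradiated BMDM shared 3 of those 10 leading genes, Slc40a1, Hmox1 and Ccl8. Slc40a1 was at 302 CPM in the 82 holding wells and 28.8 CPM in the 180 others, 10.5-fold higher (7.67 to 14.6), and was found in 47.6% and 11.1% of wells. Hmox1 was at 2032 and 443 CPM (4.58-fold, 4.20 to 5.00) and Ccl8 at 336 and 28.2 CPM (11.9-fold, 8.72 to 16.6). In this plate 2.12% of 6474 genes were at least a doubling higher in holding wells and 2.32% at least a doubling lower, fewer than in microglia, where fewer transcripts were counted.

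Lipid genes and a microglial matrix gene completed much of the upper end in BMDM. Lpl, the lipase that frees fatty acids from lipoproteins, was at 629 and 81.8 CPM (7.70-fold, 6.36 to 9.36), and the apolipoprotein gene Apoc1 at 127 and 22.2 CPM. Sparc, a secreted matrix-binding protein gene abundant in microglia, was at 759 and 128 CPM. Cxcl13, a chemokine known for drawing B cells, was at 600 and 42.1 CPM, with 51.3% of the counts of holding wells from 1 well. The others were Pmp22 (197 and 21.03 CPM), Cacna1a (117 and 16.2 CPM) and the protease inhibitor gene Serpine2 (136 and 29.4 CPM).

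Monocyte genes formed the lower end in BMDM. Ccr2 was at 425 CPM in holding wells and 1246 CPM in others, 2.93-fold lower (2.62 to 3.28), and was found in 56.1% and 88.3% of wells. Plac8, abundant in monocytes, was at 74.4 and 346 CPM (4.66-fold lower, 3.59 to 6.14), and S100a4, a calcium-binding protein gene of recruited myeloid cells, at 14.2 and 106 CPM (7.47-fold lower, 4.17 to 14.7). The rest were Plbd1, Il1r2, Gpr132, Lsp1, Ifitm1, Tgfbi and the class II pseudogene H2-Ea-ps, at 34.2 to 657 CPM in holding wells and 129 to 1760 CPM in others. Counts of H2-Ea-ps are uncertain because it resembles the functional class II genes.

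Cdkn1a, the cell cycle inhibitor that p53 induces after DNA damage, was at nearly the same level in holding and other wells. It was at 1904 and 2019 CPM in microglia with WBRT (ratio 0.944, 0.842 to 1.06) and at 1082 and 1084 CPM in BMDM with WBRT (ratio 0.999, 0.921 to 1.08). Mki67, a proliferation marker, was at 11.5 and 25.8 CPM in microglia and 18.9 and 41.5 CPM in BMDM. The microglia values rest on few counts, so no difference is read from them.

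Without WBRT, the 14 Igf1-holding BMDM wells were few enough for single wells to set the values. Spp1, which encodes osteopontin, was at 14595 CPM in them and 2386 CPM in the 220 others, with 61.1% of the former from 1 well. Fabp5, a fatty acid carrier gene, was at 1747 and 224 CPM with 54.5% from 1 well, and Lpl at 1275 and 216 CPM with 44.0% from 1 well. The other leading genes were C1ra, Blvrb, Rnf128, Gmpr, Myo1e, Ddx1 and F13a1, with 35.7% to 70.0% of holding-well counts from 1 well each. Lpl was therefore among the 10 highest genes in BMDM on both plates.

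At the lower end, Plac8 was at 36.5 and 761 CPM (20.9-fold lower, 8.12 to 76.7) and Ccr7, a homing receptor of mature dendritic cells, at 27.4 and 539 CPM. Ncoa7 was at 9.12 and 196 CPM, and Olfm1, Napsa, Net1, Cd97, Nfkbie, Zbtb18 and Strip2 had 0 counts in the 14 wells, against 104 to 226 CPM in the others. A count of 0 there allows up to 33.7 CPM by the exact interval. Of the genes of this plate 12.7% of 6581 were at least a doubling higher in holding wells and 19% at least a doubling lower, so many differences of this size occurred with so few wells.

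Microglia without WBRT gave 2 holding wells, which were described singly. They held 1969 and 2965 transcripts, below the plate's median of 4789, with ERCC shares of 24.8% and 13.5% and Malat1 at 508 and 675 CPM. Both contained transcripts of Cx3cr1, which was also counted in 176 of 234 BMDM wells without WBRT. Neither contained Ccr2, which had no count in any kept well of the plate. The first had 1 transcript of Tmem119, 2 of Mrc1 and none of P2ry12. The second had 1 of P2ry12, 1 of Pf4 and none of Tmem119. The second also contained 3 transcripts of Slc40a1, the first 0.

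Lists of genes were then read in the same way, counting those list members that reached 20 CPM in either well set. The median over all genes tested was 0.03 in microglia with WBRT and -0.05 in BMDM with WBRT on the log2 scale. It was -0.08 in BMDM without WBRT, where 14 wells held Igf1. In the iron and heme list, microglia had 6 of 13 members at least a doubling higher in holding wells and 0 lower, with a median of 0.99. The 6 were Slc40a1, Hmox1, the heme transporter gene Slc48a1 (418 and 129 CPM), the biliverdin reductase gene Blvrb (157 and 54.1 CPM) and the ferritin genes Ftl1 and Fth1, whose counts are uncertain because near-identical processed copies exist. BMDM had 4 of 13 higher and 0 lower, with a median of 0.77: Slc40a1, Hmox1, Slc48a1 (274 and 94.3 CPM) and the ferroxidase gene Cp (69.6 and 15.0 CPM). BMDM without WBRT had 8 of 15 higher and 0 lower (median 1.03), Slc40a1 and Hmox1 among them, beside 12.7% and 19% of all genes.

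Lipid genes leaned the same way. In microglia 9 of 20 members were at least a doubling higher and 0 lower (median 0.86), led by Cd36, a scavenger receptor for lipids (61.3 and 5.15 CPM), and including Fabp5 (1505 and 501 CPM) and Lpl (1376 and 555 CPM). In BMDM 5 of 20 were higher and 0 lower (median 0.53), namely Lpl, Apoc1, Fabp5, Lipa and Ch25h, the last an oxysterol-making enzyme (62.5 and 16.2 CPM). In BMDM without WBRT 9 of 20 were higher and 1 lower (median 0.72), beside 12.7% and 19% of all genes. Lpl and Fabp5 also stand in the list of disease-associated microglia genes, which had 5 higher and 1 lower of 21 in microglia and 4 higher and 0 lower of 20 in BMDM.

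Markers of microglia split by plate. In irradiated microglia 12 of 14 identity genes had a ratio below 0 and 2 were at least a doubling lower, with a median of -0.53: Gpr84 (177 and 495 CPM) and Selplg (434 and 874 CPM). Tmem119 was at 369 and 727 CPM, Olfml3 at 645 and 1267 CPM and P2ry12 at 438 and 484 CPM. Pooled levels hide a difference in detection. Tmem119 was counted in 75 of the 151 kept wells of this plate, and 19 of these were among the 60 holding wells. P2ry12 was counted in 76 wells, of which 21 were holding wells, with up to 20.05 transcripts in a well. In irradiated BMDM, 11 of 14 had a ratio above 0 and 4 were at least a doubling higher (median 0.60), namely Sparc, Sall1, a transcription factor gene that marks microglia (25.9 and 1.80 CPM), Gpr34 (176 and 68.5 CPM) and Bin1 (276 and 134 CPM). Tmem119 went the other way in BMDM, at 130 and 201 CPM.

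Markers of recruited cells were lower in holding BMDM, with 9 of 18 members at least a doubling lower and 0 higher with WBRT (median -0.98). Without WBRT 14 of 19 were lower and 2 higher (median -1.55), beside 19% and 12.7% of all genes. In microglia with WBRT only 10 of the list's members passed the minimum. Plac8 had no count in any kept well of that plate and Ccr2 was counted in 2 wells, both without Igf1, while Lgals3, which encodes galectin-3, was at 760 and 242 CPM and Vim, the intermediate filament gene of migrating cells, at 411 and 193 CPM. The sign of that list's median in microglia changed with the minimum level, from -0.37 to 1.07 for members of at least 100 CPM. Markers of border macrophages, the residents of meninges and perivascular spaces, were higher in holding microglia (5 of 8 at least a doubling, median 1.25), with Mrc1 at 142 and 46.4 CPM and Pf4 at 107 and 41.2 CPM. In irradiated BMDM 1 of 9, Folr2, was at least a doubling higher (median 0.48), and in Malat1-poor wells that median was -1.03. In BMDM without WBRT 10 of 11 border macrophage genes were at least a doubling higher and 0 lower (median 1.54).

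MHC class II genes were lower in holding wells of both irradiated plates and of BMDM without WBRT. In irradiated BMDM 6 of 7 members were at least a doubling lower (median -1.27), with Cd74 at 4444 and 10708 CPM and H2-Aa at 3592 and 8655 CPM. In BMDM without WBRT 7 of 7 were (median -2.15), beside 19% of all genes. In microglia 4 of 6 were lower (median -1.39), and in Malat1-rich wells the median was -0.36. For Cd74 and H2-Aa in microglia a single well gave most of the counts in the other wells. How far the microglia median rests on such wells was not tested. Dendritic cell markers were also lower in holding BMDM, with 4 of 5 at least a doubling lower, among them Xcr1 (1.18 and 22.8 CPM) and Flt3 (7.08 and 39.0 CPM), while Fscn1 was at least a doubling higher. Their summed level was 132 and 219 CPM, and their part in the class II difference was not tested.

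**Figure D4:**
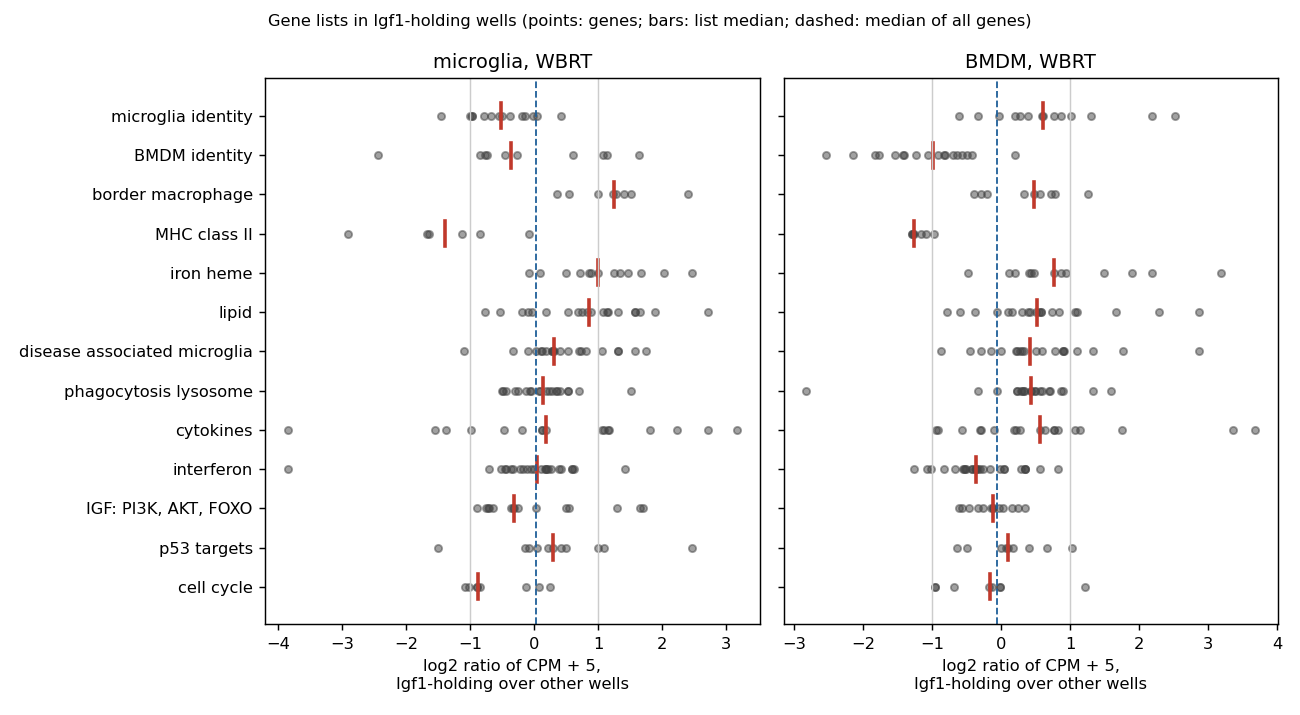
Log2 ratio of CPM + 5 between Igf1-holding and other wells for members of 13 gene lists (points), with the list median (bar) and the median of all genes (dashed line), for microglia and BMDM with WBRT. Iron and lipid lists lie right of the dashed line and MHC class II lies left of it on both plates, while microglia identity lies left in microglia (median -0.53) and right in BMDM (0.60).

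Cytokine genes were more often higher than lower in holding wells. In microglia 8 of 17 cytokine genes were at least a doubling higher and 3 lower (median 0.19), but 84.9% of Il1rn and 88.5% of Cxcl2 counts in holding wells came from 1 well each. In BMDM 5 of 19 were higher and 0 lower (median 0.56), among them Il1a (165 and 45.7 CPM). The interferon-induced list had 1 higher and 1 lower of 24 in microglia (median 0.04) and 0 higher and 3 lower of 27 in BMDM (median -0.36). The p53 target list had 2 higher and 1 lower of 11 in microglia and 1 higher of 9 in BMDM. Cell cycle genes had 0 higher and 2 lower of 8 in microglia and 1 higher of 8 in BMDM.

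Read from the other side, Igf1 was concentrated in wells with a transcript of its leading companion. In microglia with WBRT, 39 of the 64 wells with Slc40a1 held Igf1 and their pooled level was 541 CPM (456 to 635), against 21 of 87 wells and 101 CPM (71.3 to 138) without Slc40a1. In BMDM with WBRT these were 39 of 59 wells at 349 CPM (302 to 400) and 43 of 203 wells at 50.6 CPM (41.1 to 61.7). Wells with Ccl8 gave 606 and 225 CPM with and without it in microglia, and 317 and 60.4 CPM in BMDM. Only 2 of the 26 irradiated microglia wells without Hmox1 held Igf1, against 58 of the 125 with it.

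Without WBRT few wells held Igf1, whether with these genes or without them. In microglia, Slc40a1 was present in 20 wells and 1 of them held Igf1, and Hmox1 was present in 106 wells of which 2 held Igf1. Ccl8 was present in 5 microglia wells, of which 0 held Igf1. In BMDM without WBRT, 2 of 27 Slc40a1 wells, 10 of 150 Hmox1 wells and 2 of 10 Ccl8 wells held it. In BMDM wells without the gene these were 12 of 207, 4 of 84 and 12 of 224. Among wells with Slc40a1, irradiated BMDM were 15.5-fold above unirradiated ones (6.54 to 48.3), and among wells without it 3.11-fold (1.84 to 5.55). The BMDM ratio was smallest among wells without Hmox1 (1.88-fold, 0.641 to 6.68) and without Sparc (1.93-fold, 1.05 to 3.89) of all marker splits. Detection of the border macrophage gene Pf4 also differed between the BMDM plates, at 17 of 234 wells without and 159 of 262 with WBRT. Median depth differed too, at 4388 and 8894 transcripts. Whether the make-up of the BMDM plates or expression per cell differed was not tested. Among wells with Pf4 the ratio was 3.00-fold (1.35 to 8.27) and among wells without it 9.45-fold (5.57 to 17.1). In microglia the ratios with and without Slc40a1 were 68.6 (12.1 to 2728) and 75.4 (12.7 to 3054), each over 1 count without WBRT.

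Igf1 differed between wells with and without identity markers, in a direction that depended on the marker. In microglia with WBRT, Igf1 was at 108 CPM in wells with Tmem119 and 623 CPM without it, at 125 and 542 CPM for P2ry12 and at 75.3 and 566 CPM for Siglech. The wells without these markers were shallower, with medians of 2270, 2268 and 2282 transcripts against 4696, 3998 and 5093, and the part of depth was not tested. In BMDM with WBRT, Igf1 was at 64.7 CPM (54.3 to 76.6) in wells with Ccr2 and 385 CPM (328 to 448) in wells without it, with median depths of 9379 and 6488. Microglial markers gave no single direction in BMDM with WBRT: Igf1 was higher in wells with Sparc (194 CPM, 61.2 CPM without) and with Siglech (158 CPM, 114 CPM without), and lower in wells with Tmem119 (77.8 CPM, 167 CPM without).

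**Figure D5:**
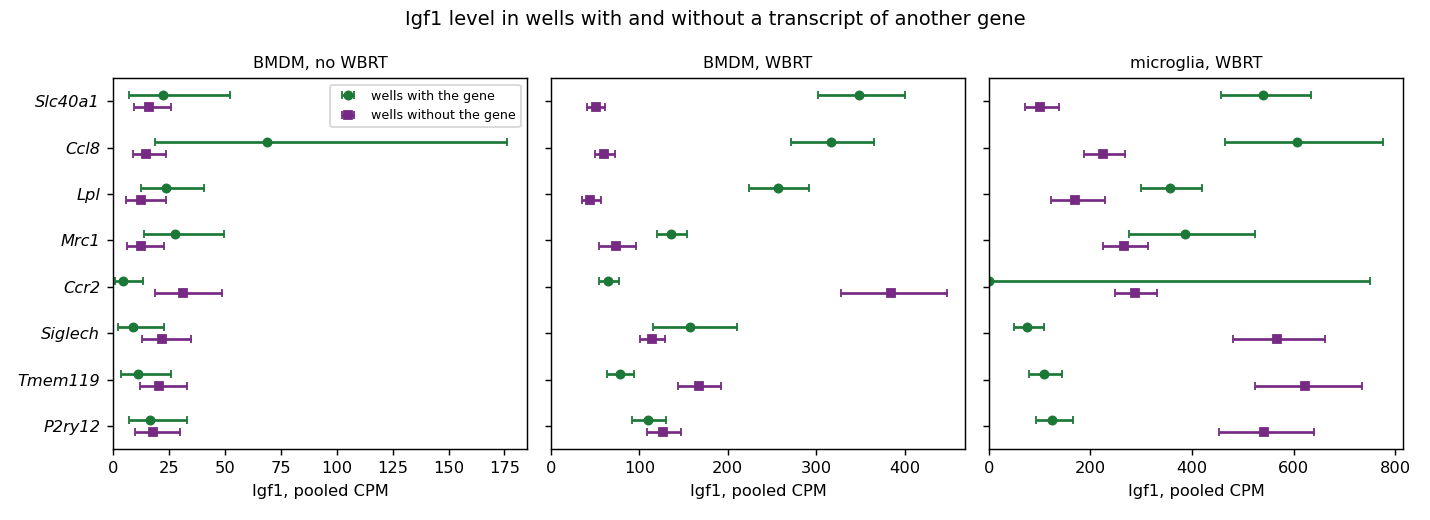
Pooled Igf1 CPM with 95% exact Poisson intervals in wells with (circles) and without (squares) a transcript of the gene on the vertical axis, for 3 plates with separate horizontal scales. Slc40a1, Ccl8 and Lpl separate the irradiated plates in 1 direction, and Ccr2 in BMDM and Tmem119, P2ry12 and Siglech in microglia in the other; the microglia value for wells with Ccr2 rests on 2 wells and 0 counts.

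Most other genes of the IGF pathway lay within a doubling between plates. Of the 52 pathway genes listed besides Igf1, 43 had a row, and 24 reached 20 CPM in 1 of the microglia plates, of which 3 were at least a doubling higher with WBRT and 2 lower (median -0.01 against 0.06 over all genes). The lower share over all genes was 7.56%. In BMDM 23 reached it, of which 1 was higher and 3 lower (median -0.11 against 0.08), where 6.14% of all genes were lower. Between sorts without WBRT, 4 of 23 were at least a doubling higher in BMDM and 1 lower, beside 10.3% and 6.81% of all genes. With WBRT 2 of 22 were higher in BMDM and 0 lower, beside 7.91% and 7.45% of all genes. Among other ligands Igf2 had a single count over all 4 plates.

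The receptor gene Igf1r was counted at a low level everywhere. It was at 23.7 CPM in BMDM without and 23.1 CPM with WBRT, and at 22.9 CPM in microglia without and 47.8 CPM with WBRT (2.09-fold, 1.15 to 3.87). Within irradiated microglia, Igf1r lay mainly in wells without Igf1: 7.67 CPM (2 counts) in holding wells and 74.7 CPM (29 counts) in the others, 9.74-fold lower (2.46 to 84.2). In irradiated BMDM it was 22.4 and 23.4 CPM. The insulin receptor gene Insr was at 36.6 CPM in microglia without and 12.3 CPM with WBRT (2.97-fold lower, 1.34 to 7.46), and Igf2r, the clearance receptor of IGF2, at 2.29 and 18.5 CPM.

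Among binding proteins, which carry IGFs outside the cell, Igfbp4 was the one above 20 CPM. It was at 41.1 CPM in BMDM without and 101 CPM with WBRT (2.47-fold, 1.83 to 3.40), and at 28.6 and 33.9 CPM in microglia. Signalling genes downstream of the receptor were similar between plates for Grb2 (268 to 372 CPM) and Akt1 (134 to 161 CPM). Those at least a doubling higher in microglia with WBRT included the PI3 kinase gene Pik3ca (38.9 and 106 CPM) and Tsc2 (30.9 and 75.5 CPM).

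On the growth hormone side, which drives Igf1 in liver, Jak2 was lower with WBRT in both sorts and Socs2 and Stat5a in BMDM. The growth hormone receptor gene Ghr had 0 to 1.54 CPM. Jak2 was at 269 CPM in BMDM without and 54.9 CPM with WBRT (4.91-fold lower, 4.01 to 6.02) and at 49.2 and 18.5 CPM in microglia (2.66-fold lower, 1.38 to 5.54). Socs2, a feedback inhibitor of growth hormone signalling, was at 136 and 6.37 CPM in BMDM (21.3-fold lower, 12.8 to 38.2) and at 11.4 and 3.08 CPM in microglia. Stat5a, a transcription factor gene activated by JAK2, was at 39.5 and 16.3 CPM in BMDM (2.42-fold lower, 1.57 to 3.75). Dendritic cell markers moved with these genes in BMDM: the summed level of 9 markers was 1748 CPM without and 190 CPM with WBRT, with none at 0 on either plate. The maturation marker Ccr7 was at 495 and 1.19 CPM, and the part of dendritic cells in these differences was not tested. Jak2 also was 2.19-fold lower (1.42 to 3.503) in Igf1-holding than in other wells of irradiated BMDM, at 30.7 and 67.3 CPM.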

How the data were processed

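Plates were made per the labels' protocols by sorting single cells and a plate-based method with cell barcodes and unique molecular identifiers (UMIs). The authors deposited, for each gene in each well, an estimated count of transcripts that was not normalized. Read from the values, UMI numbers had been corrected for chance coincidence among 4096 UMIs (largest deviation 0.005). The build was GRCm38 per the submitters' processing notes. For aligner, counter and annotation, names were not given in the sources used here.

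Counts were summed over kept wells and divided by all endogenous counts, mitochondrial ones included. A count of 3 equals 2.37, 1.19, 3.43 and 4.62 CPM in BMDM without and with WBRT and microglia without and with WBRT. With 1 library per group no test was made. Poisson, conditional ratio and binomial (Clopper-Pearson) intervals are exact, at 95%, and cover counting error only. Transcripts of 1 well are not independent. Log2 ratios used CPM + 5, and at least a doubling means a log2 ratio of 1 among genes of at least 20 CPM in 1 of the 2 sets. Thinned shares are expected values at 1000 UMIs. No doublet caller was run, and no animals are named.

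Genes named per plate were those with the 10 highest and the 10 lowest log2 ratios, taken among genes that reached 100 CPM in 1 set, with a UMI in at least 20% of the wells of the higher set and intervals that do not overlap. Mitochondrial, ribosomal and numbered predicted genes and Rn45s were left out. Pathway and identity genes, up to 4 of each other list, Malat1, Cdkn1a and Mki67 could also be named. Igf1, the 33 lists (403 symbols, 41 without a row) and these rules were chosen with earlier results of these data known. Some list members are not reported here by name. Intervals and calls were checked on simulated independent Poisson counts of whole plates, the model that the intervals assume. That check cannot cover clumping of transcripts within wells. Alternatives covered the depth, ERCC and Malat1 filters, the denominator, TMM factors (edgeR 4.0.16, R 4.3.3), pseudocount, minimum level, thinning and single wells. The work used Python 3.11.15, numpy 2.4.6, pandas 2.3.3, scipy 1.17.1 and matplotlib 3.10.9.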

Additional observations from a re-analysis of the deposited data

Results flagged for a closer look

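Wells left out for low depth or a high ERCC share also held Igf1. In microglia with WBRT the 233 such wells had 53 Igf1 counts in 33 wells, which is 536 CPM (402 to 702), while those of microglia without WBRT had 2 counts in 1 well, or 34.8 CPM (4.21 to 126). In BMDM the corresponding values were 198 CPM (90.7 to 376) with WBRT and 35.5 CPM (0.899 to 198) without. Of the 15 wells of microglia with WBRT that failed the ERCC limit alone, 8 held 14 Igf1 counts.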

How the results depend on the processing

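No paired analysis was possible because each group is 1 plate and no test was made. For the same reason no replicate could be left out. Limits: 1 plate per group, no animals named, and depths at which a count of 3 is 1.19 to 4.62 CPM, so a level near or under that can give no count. Alternatives with Malat1-poor wells, all wells of the plate, totals without mitochondrial counts and without the astrocyte-rich well were chosen after seeing the data. The cause of the changes was not tested.

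Igf1 CPM moved beyond its counting interval in 10 recomputed values. With at least 3000 counts it was 10.2 in BMDM without WBRT, 0 in microglia without and 146 in microglia with WBRT. In wells with at least 1000 CPM of Malat1 it was 96.0 in BMDM with WBRT and 0 and 113 in microglia without and with WBRT, and in the Malat1-poor wells 281 in BMDM with WBRT and 461 in microglia with WBRT. Weighting every well alike gave 157 and 439 in BMDM and microglia with WBRT. The log2 difference WBRT over none in microglia became 4.94 (at least 500 counts), 4.91 (at least 3000) and 4.56 (Malat1-rich wells). BMDM over microglia with WBRT became -0.35 (at least 3000 counts), -0.22 (Malat1-rich) and -0.70 (Malat1-poor). All recomputed CPM ratios between plates kept their sign, while per 1000 ERCC counts BMDM with WBRT (1.39) stood above microglia with WBRT (1.13).

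Shares of holding wells with at least 2 UMIs were 2.14% and 18.7% in BMDM without and with WBRT, and 0 and 22.5% in microglia. Thinning gave 1.92%, 10.8% and 23.8% in BMDM without and with WBRT and microglia with WBRT. Over all wells of the plate, BMDM and microglia with WBRT had 22.9% and 24.2%, and at 3000 counts microglia without WBRT had 0.

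Genes at least a doubling higher and lower in holding wells numbered 756 and 767 in microglia with WBRT and 137 and 150 in BMDM with WBRT. For microglia the counts became 1232 and 1583 (Malat1-rich), 1385 higher (Malat1-poor), 1175 and 1258 (at least 2 Igf1 UMIs), 128 and 79 (at least 100 CPM) and 1333 and 1854 (no minimum). For BMDM they became 724 and 1491 (Malat1-poor), 211 and 292 (at least 2 UMIs), 38 and 35 (at least 100 CPM), 243 and 283 (no minimum) and 233 lower (wells weighted alike).

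In microglia, list medians changed sign for the PI3K, AKT and FOXO list (all kept wells -0.32, 0.028 at 3000 counts, 0.037 in Malat1-rich wells), recruited-cell identity (-0.37, 0.52 at 3000 counts, 1.07 at 100 CPM), p53 targets (0.30, -0.051 in Malat1-poor wells) and cell cycle (-0.88, 0.41 in Malat1-rich wells). Microglia identity went from -0.53 to -1.34 in Malat1-poor wells. In BMDM, Malat1-poor wells turned border macrophages from 0.48 to -1.03 and cytokines from 0.56 to -0.36, and recruited-cell identity went from -0.98 to -1.80 (Malat1-poor) and -1.54 (at least 2 UMIs).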

Other observations

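Other growth factor genes that myeloid cells secrete differed from Igf1 in pattern across the 4 plates. Osm, which encodes oncostatin M, was at 205 CPM in BMDM without and 155 CPM with WBRT, and at 521 and 80.2 CPM in microglia. Vegfa, the vascular growth factor gene, was at 119 and 262 CPM in BMDM and at 83.5 and 21.6 CPM in microglia. Pros1, a ligand of the receptor MERTK, was at 77.5 and 81.2 CPM in BMDM and at 198 and 321 CPM in microglia, and Gas6, the other ligand, at 300 and 217 CPM and at 384 and 438 CPM. Gas6 was also at 393 CPM in Igf1-holding and 127 CPM in other wells of BMDM with WBRT, and at 537 and 371 CPM in microglia with WBRT. Tgfb1, Pdgfa and Gdf15 were under 40 CPM on all 4 plates.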
